A study of Mus musculus with 19 samples.

Results

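The genes described here are 37 genes of fatty acid, glycerolipid and phospholipid synthesis, taken by name from 53558 genes counted in bulk RNA-seq of neoplastic cells sorted from mouse lung tumors. They were grouped by role into the making of fatty acids (7 genes), desaturation and elongation (8), activation and mitochondrial import (5), glycerolipid synthesis (7), phosphatidylcholine synthesis (6), and lipid droplets, fatty acid binding and a nuclear receptor (4). All 37 were in the tables, 32 passed the filter on low counts and were tested, and the other 5 (*Elovl6*, *Dgat2*, *Pcyt1b*, *Pemt* and *Thrsp*) had at most 17 counts in any library.

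Tumors were initiated in mice carrying *Rosa26*LSL-tdTomato and *H11*LSL-Cas9 by lentivirus given into the trachea, and grew for 17 weeks. Every group therefore carried a tdTomato reporter and Cas9, both of them switched on by the Cre of the virus, and by design the groups differed in the guides. The libraries were from 3 females and 4 males in sgInert, 4 females and 3 males in sgCebpa/b/d, and 5 females in sgLkb1. The 7 sgInert libraries came from Lenti-sgNeo1/sgNT1/sgNeo2/Cre with inert guides, the 7 sgCebpa/b/d libraries from Lenti-sgCebpa/sgCebpb/sgCebpd/Cre, and the 5 sgLkb1 libraries from the virus with a guide against *Lkb1* (*Stk11*), the gene of the kinase LKB1. The comparisons ask what the genes do when the C/EBP transcription factors or LKB1 are targeted. Cas9 cutting differs from cell to cell, so a targeted tumor can hold cells in which a gene was not inactivated, and several libraries came from tumors of the same animal (2 numbered animals behind 3 sgLkb1 libraries, 2 behind 4 sgCebpa/b/d libraries, and 2 behind 3 of the sgInert libraries).

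Library totals ran from 2760731 to 9944134 expected counts, with medians of 5706599 in sgInert, 6260861 for sgCebpa/b/d and 6515661 in sgLkb1. *Stk11* was at 19.5 to 22.9 CPM in sgInert and at 7.53 to 12.5 CPM in sgLkb1, with no overlap. Of *Stk11*, *Cebpa*, *Cebpb* and *Cebpd*, 1 was higher and 0 lower in sgCebpa/b/d than in sgInert by the test. The higher gene was *Cebpa* (log2 fold change 0.73 ± 0.14 SE, adjusted p = 0.00148). Since small deletions need not lower a transcript, the levels of *Cebpa*, *Cebpb* and *Cebpd* do not check the label. Markers of alveolar type II (AT2) cells, the surfactant-making cells that these tumors resemble, were abundant in every library, with *Sftpc* at 20130 TPM or more. Of 12 AT2 markers 7 were lower in sgCebpa/b/d and 7 in sgLkb1 than in sgInert, and their summed level was 79200 to 100600 TPM in sgInert, 34770 to 67040 TPM under sgCebpa/b/d (34770 to 51600 TPM in 3 libraries described next) and 50990 to 69700 TPM under sgLkb1. Of the macrophage markers 1 was higher and 1 lower in sgCebpa/b/d than in sgInert by the test, of 7 endothelial markers 5 were higher, and of 8 tested fibroblast markers 2 were higher. The sort excluded cells with CD45, CD31, F4/80 or Ter119, yet the 5 libraries without an animal number in their title (3 sgCebpa/b/d, all male, and 2 sgLkb1, called unnumbered here) stood apart. The sum of 13 macrophage markers was 866 to 1169 TPM in those 3 sgCebpa/b/d libraries against 45.1 to 67.6 TPM in the 4 others, and *Ptprc*, the gene of CD45, was at 10.5 to 21.6 TPM against 0 to 0.57 TPM. The same sum was 261 to 663 TPM in those 2 sgLkb1 libraries against 43.8 to 54.9 TPM in the other 3, and 136 to 407 TPM in sgInert. In the 3 MT sgInert libraries *Lyz1* alone was at 107 to 289 TPM of a sum of 136 to 304.5 TPM, with *Ptprc* at 0 to 0.2 TPM. *Lyz1* was at 5.63 to 22.25 TPM in the 4 MT sgCebpa/b/d libraries. In the 4 ZR sgInert libraries *Chil3* reached 218.7 TPM and *Ptprc* 1.42 TPM. Summed endothelial markers were likewise 94.6 to 119 TPM against 11.6 to 25.6 TPM within sgCebpa/b/d, and 54.4 to 99.1 TPM against 31.4 to 59.9 TPM within sgLkb1. Summed fibroblast markers were 31.3 to 140 TPM with sgCebpa/b/d and 50.7 to 145 TPM in sgLkb1 against 5.14 to 56.0 TPM in sgInert. Among libraries with an MT animal number they were 5.14 to 9.89 TPM in sgInert, 31.3 to 140 TPM with sgCebpa/b/d and 50.7 to 129 TPM in sgLkb1. Fits of those libraries therefore do not remove the fibroblast difference. Summed endothelial markers among them were 11.9 to 19.1 TPM in sgInert, 11.6 to 25.6 TPM with sgCebpa/b/d and 31.4 to 59.9 TPM in sgLkb1. The endothelial difference between sgLkb1 and sgInert is thus not removed either. Summed lymphoid markers stayed at or below 8.16 TPM. The part of these cells in the results below was not tested, and values for the 10 libraries whose titles carry an MT animal number, or without the 5 unnumbered libraries, are therefore given beside the calls that they change and the main ones that they do not. In bulk RNA, fewer cells of a type and less RNA per cell cannot be told apart.

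Cells make fatty acids from cytosolic acetyl-CoA. ATP citrate lyase and acetyl-CoA synthetase supply it, acetyl-CoA carboxylase turns it into malonyl-CoA, and fatty acid synthase builds palmitate. Elongases and desaturases then lengthen the chain and place double bonds, acyl-CoA synthetases activate it, and acyltransferases put it on glycerol to make triglyceride or, with CDP-choline, phosphatidylcholine. AT2 cells are known for this pathway because surfactant is mostly phosphatidylcholine with saturated chains.

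*Scd1*, the stearoyl-CoA desaturase that makes monounsaturated fatty acids, dominated the 37 genes. Its median level was 2765 TPM in sgInert, 982 TPM with sgCebpa/b/d and 4588 TPM in sgLkb1, which ranked it 25, 84 and 18 among all genes. Next in sgInert came *Acsl4*, an acyl-CoA synthetase with a preference for arachidonate (839 TPM), *Elovl1*, an elongase of very long chains (510 TPM), *Chka*, choline kinase alpha (218 TPM), and *Me1*, the malic enzyme that yields NADPH (205 TPM). At the other end *Dgat2*, *Acacb*, *Thrsp*, *Elovl6* and *Pcyt1b* had medians under 1 TPM in sgInert. TPM is scaled to gene length, so these levels can be compared between genes.

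Added together, the 37 genes amounted to 4974 to 7906 TPM in sgInert (median 5830), 2198 to 4426 TPM in sgCebpa/b/d (median 3483) and 7310 to 9706 TPM in sgLkb1 (median 7707). Every sgCebpa/b/d library lay under every library of the other groups, and 1 sgInert library reached into the sgLkb1 range. *Scd1* made up 40.6 to 55.4% of that sum in sgInert, 24.6 to 33.2% with sgCebpa/b/d and 56.6 to 65.4% in sgLkb1. Without *Scd1* the sums were 2472 to 3664 TPM, 1658 to 2957 TPM and 3015 to 3456 TPM, so that sgInert overlapped with both other groups. The highest sgCebpa/b/d sum lay just under the lowest sgLkb1 sum. TPM is not TMM-scaled. On log2(TPM + 1) the median of all genes was itself -0.15 for sgCebpa/b/d minus sgLkb1 and 0.18 for sgLkb1 minus sgInert. The gap between sgCebpa/b/d and sgLkb1 without *Scd1* is therefore not taken as a difference. Nor are the higher sums in sgLkb1 than in sgInert, with or without *Scd1*. Within sgCebpa/b/d the 3 libraries lacking an animal number were the lowest, at 2198 to 2957 TPM with *Scd1*, against 3483 to 4426 TPM in the 4 MT libraries.

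**Figure D1:**
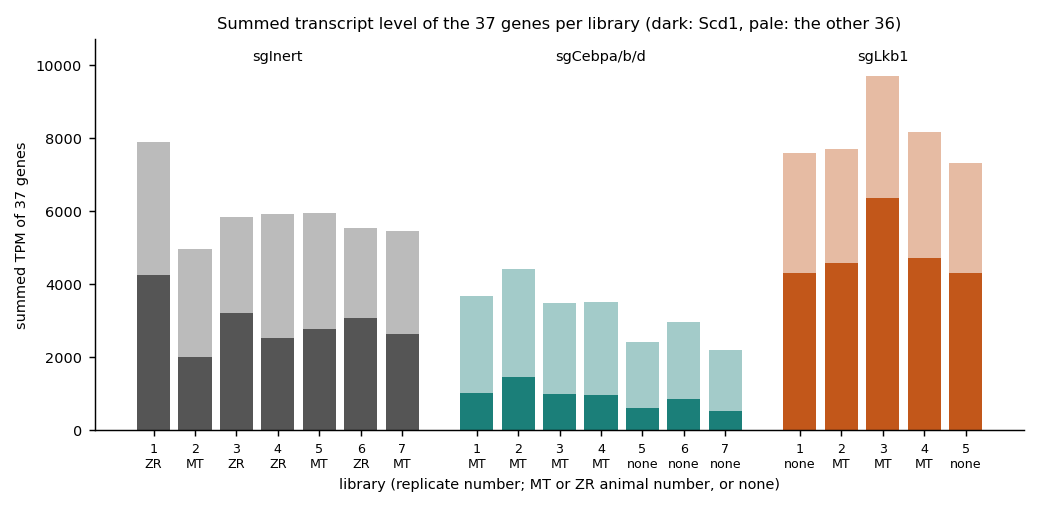
Summed TPM of the 37 genes in each of the 19 libraries (y axis), grouped by virus, with the share of *Scd1* in dark and the other 36 genes in pale color. The sgCebpa/b/d bars reach at most 4426 TPM and the sgLkb1 bars at least 7310 TPM, and the dark part of each bar is shortest in sgCebpa/b/d.

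To show the DNA before the starts of these genes, the 250 bases upstream of each RefSeq start (GRCm38, the build of the counts) were searched on both strands for CCAAT (the box bound by NF-Y), TTGCNNAA (a form of the C/EBP site), CACGTG (the E-box) and TCACNCCAC (the sterol response element). The end of TTGCNNAA can share letters with CCAAT, and the other motifs were counted without regard to overlap. Windows were given for 31 of the 37 genes, with *Fads1*, *Scd2*, *Dgat1*, *Scd1*, *Fabp5* and *Dgat2* not among them. CCAAT was in the window of 21 of the 31 genes (67.7%), against 37.5% of all 27025 genes with a window and 40.4% of the 9708 of them that were tested. TTGCNNAA was in 3 of 31 (9.68%, against 10.8% of all genes), CACGTG in 2 of 31 (6.45% against 6.86%) and TCACNCCAC in 2 of 31 (6.45% against 1.22%). Of the 9 windows of genes that fell in sgCebpa/b/d, 5 held CCAAT (*Fasn*, *Acsl5*, *Acss2*, *Gpam* and *Plin2*) and 0 held any of the other 3 motifs. The windows below belong to the genes with the smallest p in 4 roles, among the genes past the test whose window overlaps no annotated exon. The *Acaca* window was passed over because its start lies deep inside the gene, and *Gpam* was added after its values were seen, as the glycerolipid gene past the test. Capitals mark a motif match, and each window ends at the base before the RefSeq start, written in the direction of the gene.
Fasn: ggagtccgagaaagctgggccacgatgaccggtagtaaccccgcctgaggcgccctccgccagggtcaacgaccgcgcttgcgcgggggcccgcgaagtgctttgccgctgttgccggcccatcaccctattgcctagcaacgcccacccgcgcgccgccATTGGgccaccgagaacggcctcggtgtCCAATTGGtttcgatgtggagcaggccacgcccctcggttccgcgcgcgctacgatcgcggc
Elovl7: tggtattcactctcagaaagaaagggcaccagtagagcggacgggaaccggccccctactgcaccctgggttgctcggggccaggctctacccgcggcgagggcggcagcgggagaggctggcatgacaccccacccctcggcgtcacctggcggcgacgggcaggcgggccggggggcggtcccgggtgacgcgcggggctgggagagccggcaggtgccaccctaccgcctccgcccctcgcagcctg
Acsl5: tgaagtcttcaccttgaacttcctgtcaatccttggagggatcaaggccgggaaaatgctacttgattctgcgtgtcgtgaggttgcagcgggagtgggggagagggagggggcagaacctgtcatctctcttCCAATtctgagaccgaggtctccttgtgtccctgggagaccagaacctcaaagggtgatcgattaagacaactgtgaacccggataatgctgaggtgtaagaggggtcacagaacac
Pcyt1a: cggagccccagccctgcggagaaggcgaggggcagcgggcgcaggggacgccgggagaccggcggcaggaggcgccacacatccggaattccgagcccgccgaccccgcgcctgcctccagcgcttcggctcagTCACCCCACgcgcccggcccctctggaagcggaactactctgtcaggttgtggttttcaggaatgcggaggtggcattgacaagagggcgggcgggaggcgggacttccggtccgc
Gpam: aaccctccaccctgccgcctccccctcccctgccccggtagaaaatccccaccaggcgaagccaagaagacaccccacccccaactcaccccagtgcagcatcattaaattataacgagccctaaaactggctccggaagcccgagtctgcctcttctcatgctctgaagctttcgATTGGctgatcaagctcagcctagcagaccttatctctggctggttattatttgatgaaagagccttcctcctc
*Fasn* lies on the minus strand and its window is chr11:120824548-120824797. It holds ATTGG 90 bases before the start and an overlapping CCAAT and ATTGG pair 62 and 59 bases before it. The *Elovl7* window (chr13:108214154-108214403, plus strand) holds none of the 4 motifs. That of *Acsl5* (chr19:55253119-55253368, plus strand), which lies in an intron of a longer annotated transcript, holds CCAAT 117 bases before the start. *Pcyt1a* (chr16:32430671-32430920, plus strand, the first of 3 windows) holds the sterol response element letters TCACCCCAC 116 bases before the start, and *Gpam* (chr19:55127239-55127488, minus strand, the first of 2) holds ATTGG 74 bases before it. A match describes the letters and not a bound site.

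Relative to sgInert, 12 of the 32 tested genes fell and 1 rose in sgCebpa/b/d tumors. Over all 13986 genes tested, 5.36% fell and 4.73% rose by the same rule, an adjusted p under 0.05 by edgeR's quasi-likelihood test. The median log2 fold change of the 32 genes was -0.47, beside 0.02 for all genes tested, and 25 of the 32 lay under 0. With a log2 fold change past 1 as well, 6 genes fell and 0 rose, against 2.00% and 2.65% of all genes. Among the 7 sgCebpa/b/d and 7 sgInert libraries, 5 of the 32 genes did not overlap at all, all lower in sgCebpa/b/d (2.09% of all genes) and 0 higher (1.28%). The genes that fell ran along the pathway from citrate to long-chain acyl-CoA, with 4 of 6 tested genes of fatty acid synthesis, 3 of 7 of desaturation and elongation, 2 of 5 of activation and import, 1 of 6 of glycerolipid synthesis, 0 of 4 of phosphatidylcholine synthesis and 2 of 4 of droplets and binding.

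In the synthesis group, *Acaca* (chromosome 11, 84129672 to 84401651, plus strand), the acetyl-CoA carboxylase that commits carbon to fatty acids, had the smallest p of the group. It ranged from 213 to 354 CPM in sgInert (median 258) and from 115 to 143 CPM in sgCebpa/b/d (median 139), and the sgLkb1 libraries had 207, 227, 259, 217 and 210 CPM. All 7 sgCebpa/b/d libraries lay under all others, with a log2 fold change of -0.96 ± 0.10 (SE) against sgInert (adjusted p = 1.66e-06) and of -1.02 ± 0.12 among the MT libraries. *Fasn* (chromosome 11, 120805846 to 120824547, minus strand), fatty acid synthase, ran from 495 to 808 CPM in sgInert (median 680), from 248 to 457 CPM in sgCebpa/b/d (median 361), and was at 731, 618, 814, 650 and 669 CPM in sgLkb1. Again no sgCebpa/b/d library reached the others, and the fold change was -0.93 ± 0.13 on the log2 scale (adjusted p = 6.99e-05). Among the MT libraries *Fasn* fell by 0.59 ± 0.13 on the log2 scale (adjusted p = 0.0121), the 3 sgCebpa/b/d libraries without an animal number being its lowest at 248 to 287 CPM.

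*Acly*, the ATP citrate lyase that exports acetyl-CoA carbon from citrate, was at 203 to 330 CPM in sgInert (median 243), at 121 to 209 CPM with sgCebpa/b/d (median 172) and at 210, 194, 217, 209 and 208 CPM in sgLkb1. Only 1 sgInert library lay within the sgCebpa/b/d range, and the log2 fold change in sgCebpa/b/d was -0.61 ± 0.12 (adjusted p = 0.0018). Without the 5 libraries lacking an animal number the adjusted p was 0.0507 (log2 fold change -0.42 ± 0.12). *Acss2*, which makes acetyl-CoA from acetate, was scarce and scattered, at 4.19 to 35.8 CPM in sgInert (median 14.96), 3.98 to 14.1 CPM with sgCebpa/b/d (median 6.33) and 8.77, 6.90, 8.65, 6.29 and 12.8 CPM in sgLkb1. Its log2 fold change of -1.14 ± 0.36 in sgCebpa/b/d barely passed (adjusted p = 0.0447), and leaving out any of 12 single libraries raised the adjusted p above 0.05, to as much as 0.124. Its log2 fold change was about as large, and not past the test, without the 5 unnumbered libraries (-1.28 ± 0.42, adjusted p = 0.0899), and smaller among the MT libraries (-0.51 ± 0.41, adjusted p = 0.549). *Me1* (-0.19 ± 0.14) and *Acacb*, the mitochondrial carboxylase (0.05 ± 0.28), did not pass.

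*Scd1* (chromosome 19, 44394455 to 44407879, minus strand) had the smallest p of the 32 genes. It ran from 7714 to 14999 CPM in sgInert (median 10051) and from 2363 to 5075 CPM in sgCebpa/b/d (median 3224), while the sgLkb1 libraries had 13248, 15076, 20505, 13946 and 14200 CPM. The highest sgCebpa/b/d library lay well under the lowest sgInert library. The fold was 3.21 lower in sgCebpa/b/d (log2 fold change -1.68 ± 0.17, adjusted p = 7.59e-07), and among the MT libraries the log2 fold change was -1.26 ± 0.16 (adjusted p = 3e-04). *Scd2*, the neighboring desaturase of similar sequence, whose reads can be confused with those of *Scd1*, had medians of 679, 559 and 785 CPM for sgInert, sgCebpa/b/d and sgLkb1, and its -0.26 ± 0.11 against sgInert did not pass (adjusted p = 0.143).

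The front-end desaturases of polyunsaturated fatty acids, *Fads1* (delta-5) and *Fads2* (delta-6), sit near each other on chromosome 19. *Fads1* was at 45.7 to 131 CPM in sgInert (median 74.5), 18.5 to 42.0 CPM with sgCebpa/b/d (median 26.4) and 51.3, 40.3, 70.8, 72.6 and 56.5 CPM in sgLkb1. No sgCebpa/b/d library reached the sgInert range, at a log2 fold change of -1.56 ± 0.24 (adjusted p = 1.64e-04) and of -1.60 ± 0.31 among the MT libraries. *Fads2* was scarcer, at 2.39 to 15.6 CPM in sgInert (median 5.10), 1.51 to 4.29 CPM with sgCebpa/b/d (median 3.26) and 11.7, 12.7, 9.86, 8.26 and 8.45 CPM in sgLkb1. Its groups overlapped, and its -1.21 ± 0.33 (adjusted p = 0.0197) no longer passed without sgInert replicate 5 or replicate 7 (adjusted p up to 0.0596), or without the 5 unnumbered libraries (-1.02 ± 0.41, adjusted p = 0.173), but passed among the MT libraries (-1.54 ± 0.37, adjusted p = 0.0171). Of the elongases, *Elovl1* (-0.50 ± 0.17, adjusted p = 0.0741), *Elovl5* (0.11 ± 0.10) and *Elovl7* (-0.47 ± 0.24) did not pass in sgCebpa/b/d in the fit without a covariate.

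**Figure D2:**
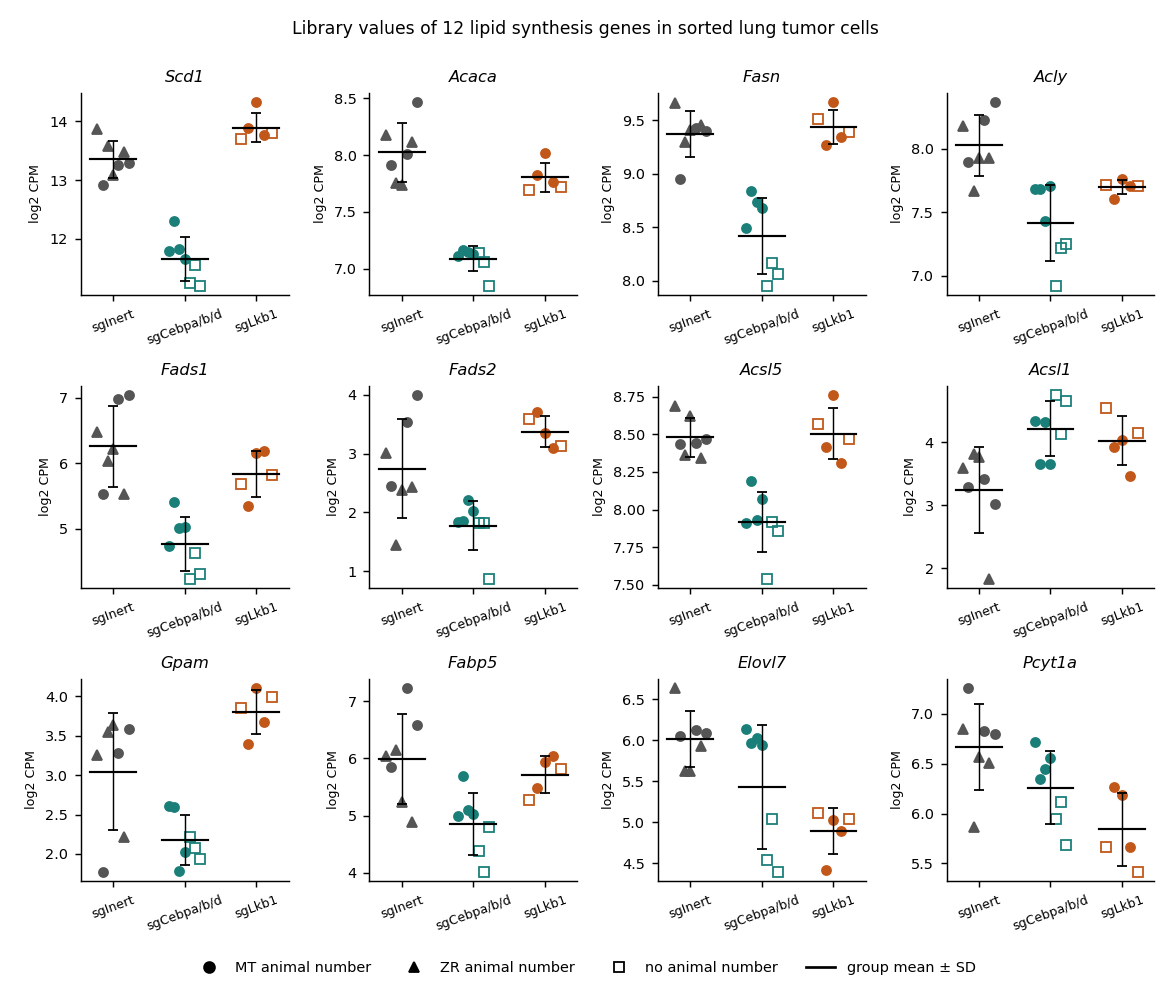
log2 CPM (y axis) of 12 of the genes in each library, by virus group (x axis), with the marker shape giving the animal number series of the title and the black bars the group mean and SD. *Scd1*, *Acaca*, *Fasn*, *Fads1* and *Acsl5* show no overlap between sgCebpa/b/d and sgInert, and *Elovl7* splits sgCebpa/b/d into 4 MT libraries near sgInert and 3 unnumbered libraries near sgLkb1.

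The long-chain acyl-CoA synthetases did not move together. *Acsl5*, an isoform of mitochondria and endoplasmic reticulum, was tightly grouped, at 324 to 412 CPM in sgInert (median 347), 186 to 291 CPM with sgCebpa/b/d (median 241) and 379, 342, 433, 317 and 353 CPM in sgLkb1. Its sgCebpa/b/d values lay under all others, with a log2 fold change of -0.56 ± 0.09 (adjusted p = 3.9e-04) and of -0.43 ± 0.11 among the MT libraries. *Acsl4* was at 1931 to 3411 CPM in sgInert (median 3066), 1318 to 2464 CPM with sgCebpa/b/d (median 1973) and 2617, 2379, 2481, 2293 and 2413 CPM in sgLkb1. It overlapped between groups and its -0.60 ± 0.15 passed (adjusted p = 0.0127), but not without the 5 libraries lacking an animal number (-0.34, adjusted p = 0.209). *Acsl1*, best known from liver, fat and heart, was the exception to the direction, at 3.24 to 13.8 CPM in sgInert (median 10.3), 12.2 to 26.5 CPM with sgCebpa/b/d (median 19.8) and 23.1, 14.9, 16.1, 10.7 and 17.3 CPM in sgLkb1. Its rise of 0.93 ± 0.26 in sgCebpa/b/d (adjusted p = 0.0232) did not pass among the MT libraries (0.77, adjusted p = 0.104) or without sgCebpa/b/d replicate 5 or 7 (adjusted p up to 0.0549). *Acsl3* (0.18 ± 0.17) and *Cpt1a*, the carnitine palmitoyltransferase that admits acyl chains to mitochondria (-0.14 ± 0.18), did not pass.

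Glycerolipid synthesis begins with *Gpam*, the mitochondrial glycerol-3-phosphate acyltransferase. It was at 3.10 to 12.1 CPM in sgInert (median 9.42), 3.13 to 5.79 CPM with sgCebpa/b/d (median 3.89) and 14.1, 10.2, 16.8, 12.4 and 15.6 CPM in sgLkb1. A pair of sgInert libraries, at 3.10 and 4.32 CPM, were as low as the sgCebpa/b/d libraries, and the log2 fold change was -1.02 ± 0.28 (adjusted p = 0.0188). Among the MT libraries alone it was -0.83 (adjusted p = 0.285), and without the 5 libraries lacking an animal number -0.93 (adjusted p = 0.168). The following steps, the acyltransferases *Agpat2* and *Agpat3*, the phosphatidate phosphatases *Lpin1* and *Lpin2* and the terminal acyltransferase *Dgat1*, lay between -0.59 and -0.10 with none past the test in all libraries, although *Lpin1* fell among the MT libraries (-1.47 ± 0.39, adjusted p = 0.0285). Without the 5 unnumbered libraries *Lpin2* fell (-0.74 ± 0.21, adjusted p = 0.0411), but among the MT libraries it did not pass (-0.19 ± 0.09, adjusted p = 0.255). *Dgat2* reached at most 2.58 CPM in any library and was not tested.

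The choline branch showed no call in sgCebpa/b/d in the fit without a covariate. *Chka* and *Chkb*, the kinases that phosphorylate choline, were at 0.13 ± 0.11 and 0.17 ± 0.15, *Chpt1*, the cholinephosphotransferase, at 0.01 ± 0.11, and *Pcyt1a*, the rate-setting CTP:phosphocholine transferase, at -0.43 ± 0.19 (adjusted p = 0.165). *Pcyt1b* and *Pemt* were at or under 2.17 CPM in every library.

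Of the droplet and binding genes, *Fabp5*, a fatty acid binding protein with processed pseudogenes that can take reads, was at 29.2 to 149 CPM in sgInert (median 65.6), 15.9 to 51.2 CPM with sgCebpa/b/d (median 31.5) and 38.3, 44.4, 61.3, 65.3 and 56.2 CPM in sgLkb1. The ranges overlapped, with a log2 fold change of -1.24 ± 0.29 in sgCebpa/b/d (adjusted p = 0.00732) and of -1.44 ± 0.27 among the MT libraries, and it did not pass without the 5 unnumbered libraries (-0.94 ± 0.34, adjusted p = 0.127). *Plin2*, the coat protein of lipid droplets, had medians of 30.7, 16.3 and 35.9 CPM for sgInert, sgCebpa/b/d and sgLkb1. Its -0.85 ± 0.27 in sgCebpa/b/d was the weakest of the calls (adjusted p = 0.0479), and 15 of 19 fits that left out a library lost it (adjusted p up to 0.117), as did the fits of the MT libraries (-0.55 ± 0.23, adjusted p = 0.185) and without the 5 unnumbered libraries (-0.96 ± 0.32, adjusted p = 0.0974), the latter at no smaller fold. *Plin3* (-0.27 ± 0.19) and *Pparg*, the nuclear receptor of fat storage (-0.82 ± 0.53), did not pass. *Pparg* was scarce, at 1.98 to 9.81 CPM in sgInert and 0.16 to 7.95 CPM with sgCebpa/b/d. It passed without the 5 unnumbered libraries (-2.29 ± 0.60, adjusted p = 0.0289), but not among the MT libraries (-1.96 ± 0.66, adjusted p = 0.0879).

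Few of the genes passed the test in sgLkb1 tumors. Of the 32 tested genes 2 fell and 0 rose relative to sgInert, against 2.97% and 2.81% of all genes tested. At an unadjusted p under 0.05, 5 were higher and 6 lower (9.11% and 9.40% of all genes), and DESeq2 called 1 higher and 3 lower (4.08% of all genes each way). The median log2 fold change was 0.03, beside -0.01 for all genes, with 15 of the 32 genes under 0. Past a log2 fold change of 1, 1 gene fell (1.14% of all genes) and 0 rose (1.87%), and 1 gene was lower without overlap of the libraries (2.00% of all genes) against 0 higher (2.15%).

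The genes that fell were an elongase and the CTP:phosphocholine transferase. *Elovl7* (chromosome 13, 108214404 to 108285683, plus strand), an elongase of saturated and polyunsaturated very long chains, was at 49.0 to 98.8 CPM in sgInert (median 66.1) and at 34.2, 21.0, 32.3, 29.5 and 32.5 CPM in sgLkb1, without overlap. Its log2 fold change was -1.14 ± 0.28 (adjusted p = 0.0153), and -1.30 ± 0.16 among the MT libraries. It lost the call without sgLkb1 replicate 2 (adjusted p = 0.0534). In sgCebpa/b/d the gene was at 61.0 to 70.2 CPM in the 4 MT libraries and at 20.7 to 32.7 CPM in the 3 unnumbered libraries, and only among MT libraries was it higher in sgCebpa/b/d than in sgLkb1 (1.22 ± 0.15, adjusted p = 2.36e-04, against 0.67 ± 0.27 and adjusted p = 0.177 in all libraries).

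*Pcyt1a* (chromosome 16, 32430921 to 32475070, plus strand), whose upstream window is printed above, was at 58.0 to 153 CPM in sgInert (median 111), 51.2 to 105 CPM with sgCebpa/b/d (median 81.2) and 50.4, 76.8, 72.6, 50.3 and 42.4 CPM in sgLkb1. The sgInert and sgLkb1 ranges overlapped. Its log2 fold change in sgLkb1 was -0.85 ± 0.21 (adjusted p = 0.0177) and -0.93 ± 0.17 among the MT libraries, and the call was lost without sgLkb1 replicate 1, 4 or 5 (adjusted p up to 0.064) and without the 5 libraries lacking an animal number (-0.66, adjusted p = 0.118).

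*Scd1* was higher in every sgLkb1 library than in 6 of the 7 sgInert libraries, but its 0.53 ± 0.18 did not pass in all libraries (adjusted p = 0.0916). Among the MT libraries it did (0.84 ± 0.18, adjusted p = 0.0095), as did *Lpin2* (0.40 ± 0.10, adjusted p = 0.0233), while *Acly* (-0.49 ± 0.13, adjusted p = 0.0282) and *Acsl4* (-0.39 ± 0.10, adjusted p = 0.0383) fell there. In the MT libraries 4 genes were thus lower and 2 higher in sgLkb1, against 3.36% and 3.61% of 13674 genes tested. Without the 5 unnumbered libraries *Scd1* (0.63 ± 0.18, adjusted p = 0.0682) and *Lpin2* (-0.15 ± 0.22, adjusted p = 0.819) did not pass. Nor did *Acly* (-0.35 ± 0.13, adjusted p = 0.176) and *Acsl4* (-0.26 ± 0.16, adjusted p = 0.45). In all libraries *Lpin2* was at -0.04 ± 0.20, *Acly* at -0.35 ± 0.13 and *Acsl4* at -0.23 ± 0.17, none past the test. *Gpam* (0.66 ± 0.29), *Acsl1* (0.73 ± 0.28), *Acacb* (0.63 ± 0.30) and *Fads2* (0.45 ± 0.34) lay above 0, and *Acss2* (-0.93 ± 0.39) and *Plin3* (-0.66 ± 0.21) below, without passing. All sgLkb1 libraries were from females, and with sex as a covariate 4 genes were lower and 0 higher, against 4.14% and 4.85% of all genes.

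**Figure D3:**
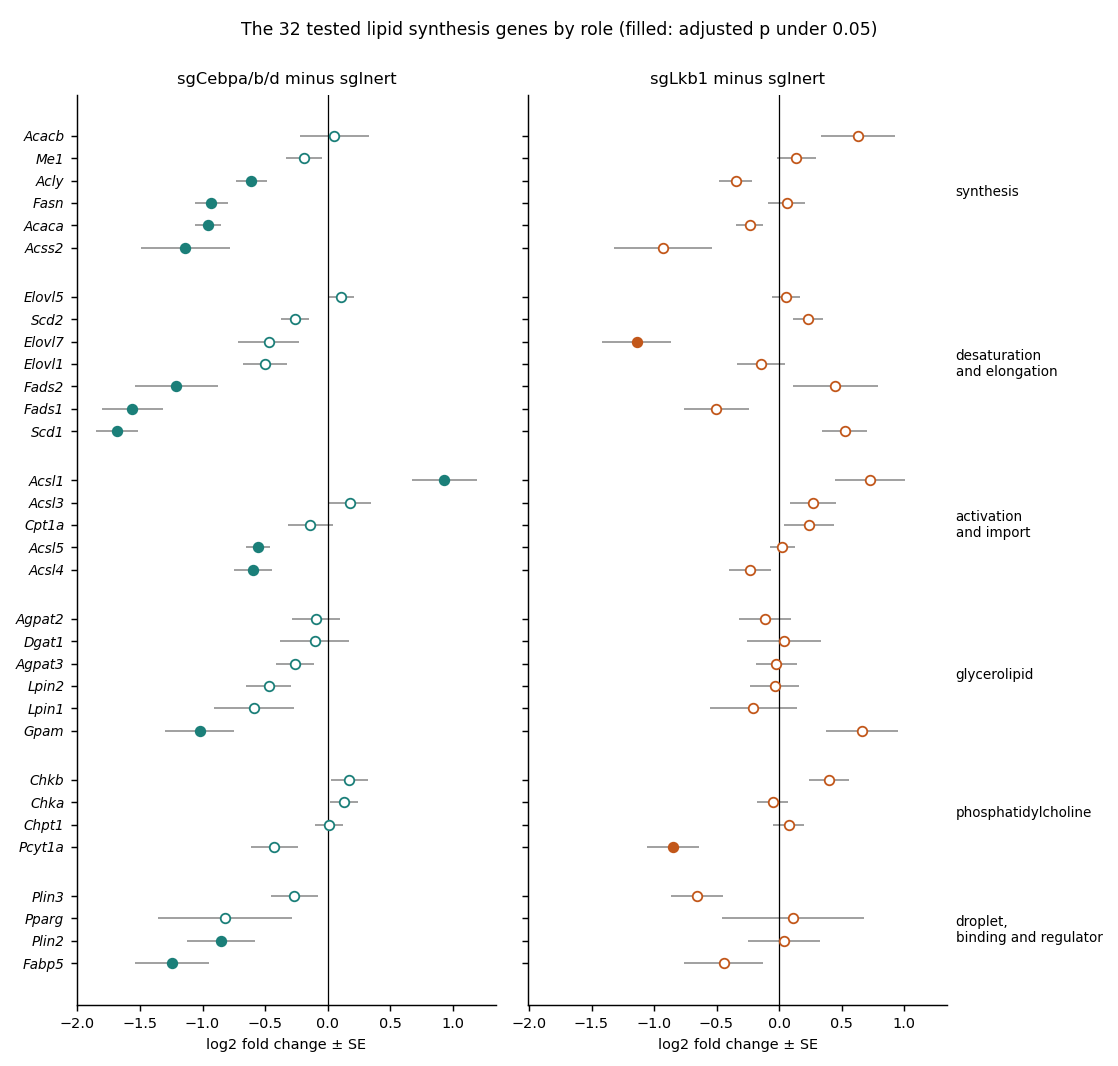
log2 fold change ± SE (x axis) of the 32 tested genes in sgCebpa/b/d (left) and sgLkb1 (right) against sgInert, ordered by role, with filled points where the adjusted p was under 0.05. In sgCebpa/b/d 12 points are filled to the left of 0 and 1 to the right, and in sgLkb1 the filled points are *Elovl7* and *Pcyt1a*.

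The groups of targeted tumors were also compared with each other, since the contrasts above share the sgInert libraries. Of the 32 genes 8 were lower and 0 higher in sgCebpa/b/d than in sgLkb1, against 3.12% and 2.83% of all genes tested, with 4 lower (1.64% of all genes) and 0 higher (1.16%) past a log2 fold change of 1. At an unadjusted p under 0.05, 1 was higher and 13 lower (9.47% and 8.81% of all genes), and DESeq2 called 0 higher and 9 lower (4.08% and 4.04%). The median log2 fold change was -0.36, beside 0.03 for all genes, and 7 genes were lower without overlap (2.87% of all genes) and 0 higher (2.22%). Of the genes 10 were lower and 1 higher among the MT libraries, against 3.30% and 3.68% of 13674 genes. *Plin2* (-1.20 ± 0.23, adjusted p = 0.00503) and *Lpin2* (-0.59 ± 0.09, adjusted p = 0.00118) were called there and not in all libraries. So was the scarce *Pparg* (-2.31 ± 0.65, adjusted p = 0.047). *Fads1* was called in all libraries and not there (-0.87 ± 0.31, adjusted p = 0.118). *Scd1* differed 4.62-fold (-2.21 ± 0.18, adjusted p = 1.38e-07), and -2.09 ± 0.16 among the MT libraries and -2.42 among those without an animal number. *Fasn* (-0.99 ± 0.14, adjusted p = 1.31e-04), *Acaca* (-0.72 ± 0.11, adjusted p = 2.13e-04), *Acsl5* (-0.58 ± 0.10, adjusted p = 8.8e-04) and *Gpam* (-1.69 ± 0.29, adjusted p = 8.42e-04) followed. *Fads2* (-1.66 ± 0.35, adjusted p = 0.00482) did not overlap here, whereas *Fads1* did (-1.06 ± 0.26, adjusted p = 0.0147, and 0.0516 without sgLkb1 replicate 4). *Scd2* was lower by 0.49 ± 0.12 on the log2 scale (adjusted p = 0.0132), and the adjusted p was 0.0529 without sgLkb1 replicate 3. Without the 5 libraries lacking an animal number 4 genes stayed lower (*Acaca*, *Fasn*, *Scd1* and *Acsl5*), against 1.63% of all genes in that fit, and *Elovl7* was higher (1.60% of all genes, 1.22 ± 0.22, adjusted p = 0.00416), while *Gpam* (-1.52 ± 0.42, adjusted p = 0.0606), *Scd2* (-0.55 ± 0.17, adjusted p = 0.0913), *Fads2* (-1.49 ± 0.47, adjusted p = 0.104) and *Fads1* (-0.88 ± 0.34, adjusted p = 0.206) did not pass, at log2 fold changes near those in all libraries.

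The order of the group means differed from gene to gene. In 12 of the 32 genes, among them *Fasn*, *Scd1*, *Scd2*, *Fads2*, *Acsl5*, *Gpam* and *Plin2*, the mean log2 CPM was lowest in sgCebpa/b/d and highest in sgLkb1. In 10 genes, among them *Acly*, *Acaca*, *Fads1*, *Acsl4* and *Fabp5*, it was lowest in sgCebpa/b/d and highest in sgInert, and in the other 10 sgCebpa/b/d was not the lowest group. Within a group the highest library exceeded the lowest by a median over the 32 genes of 1.91-fold in sgInert, 2.00-fold with sgCebpa/b/d and 1.65-fold in sgLkb1.

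Because the 3 male sgCebpa/b/d libraries are those without an animal number, and because the ZR numbers occur only in sgInert, sex and title series cannot be told apart from each other in part of the data. Among the MT libraries alone 10 of the 32 genes were lower and 0 higher in sgCebpa/b/d than in sgInert, against 4.25% and 4.30% of 13674 genes tested there. *Acaca*, *Scd1*, *Fasn*, *Fads1*, *Fads2*, *Acsl4*, *Acsl5*, *Acly* and *Fabp5* were called both there and in all libraries. *Acss2*, *Gpam*, *Plin2* and the higher *Acsl1* were called in all libraries and not among the MT libraries, and *Lpin1* the other way round. Without the 5 libraries lacking an animal number, a choice made after the data were seen, 7 were lower (*Acaca*, *Fasn*, *Scd1*, *Fads1*, *Acsl5*, *Lpin2* and *Pparg*) and 0 higher, against 3.46% and 2.80% of 14080 genes in that fit. With sex as a covariate 12 were lower and 1 higher, against 6.56% and 5.76% of all genes, but they were not the same 12. *Elovl1* (-0.61 ± 0.15, adjusted p = 0.00825) and *Pcyt1a* (-0.51 ± 0.16, adjusted p = 0.0417) were called there. *Acss2* (-1.03 ± 0.35, adjusted p = 0.0557) and *Plin2* (-0.82 ± 0.27, adjusted p = 0.0527) were not.

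**Figure D4:**
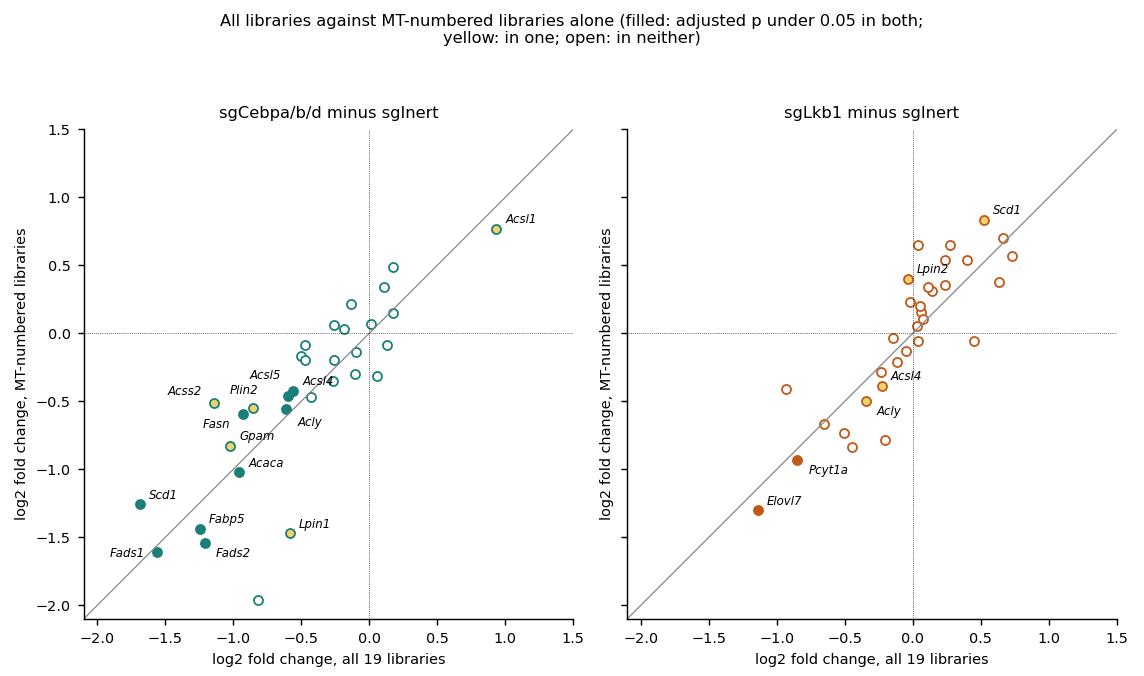
log2 fold change of the 32 genes in all 19 libraries (x axis) against that in the 10 MT-numbered libraries (y axis), for sgCebpa/b/d (left) and sgLkb1 (right) minus sgInert, with the line of equality. *Scd1* and *Fasn* lie above the line on the left, with smaller falls among the MT libraries, and *Elovl7* and *Pcyt1a* lie close to the line on the right.

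Other genes of lipid metabolism were described from lists of 124 genes, 96 of them tested. Relative to sgInert 24 were lower and 2 higher in sgCebpa/b/d, with a median log2 fold change of -0.19, and 7 were lower and 1 higher in sgLkb1, with a median of 0.01. The shares of all genes tested were 5.36% lower and 4.73% higher in sgCebpa/b/d, and 2.97% and 2.81% in sgLkb1. Of the further fatty acid synthesis genes 8 of 19 fell and 0 rose in sgCebpa/b/d, and 5 of 9 genes of droplets and lipolysis fell. By contrast 1 of 16 fatty acid oxidation genes rose (*Decr1*, a dienoyl-CoA reductase, 0.52 ± 0.16, adjusted p = 0.0433), 0 fell, and 0 of 9 further glycerolipid genes passed.

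*Acot1*, an acyl-CoA thioesterase nearly identical to *Acot2* so that reads can be assigned to either, fell by 2.02 ± 0.26 on the log2 scale in sgCebpa/b/d (adjusted p = 2e-05). *Mid1ip1*, which promotes the polymerization of acetyl-CoA carboxylase, fell in both targeted groups, by 1.18 ± 0.19 in sgCebpa/b/d (adjusted p = 2.56e-04) and by 1.09 ± 0.21 in sgLkb1 (adjusted p = 0.0031). *Acss3*, a mitochondrial short-chain synthetase, passed the fold of 1 in sgLkb1 (-1.15 ± 0.24, adjusted p = 0.00487). Among the MT libraries it also fell past that fold in sgCebpa/b/d (-1.20 ± 0.18, adjusted p = 8.54e-04). Genes of the droplet lay lower in sgCebpa/b/d. They were *Fitm2*, which partitions fat into droplets (-1.37 ± 0.17, adjusted p = 1.51e-05), *Abhd5*, the coactivator of triglyceride lipase (-1.52 ± 0.17, adjusted p = 2.92e-06), and *G0s2*, the inhibitor of that lipase (-1.63 ± 0.42, adjusted p = 0.0129). *Abhd5* fell in sgLkb1 too (-1.02 ± 0.19, adjusted p = 0.00169), while *Fitm2* was at 0.01 ± 0.18 and *G0s2* at 0.12 ± 0.43 there. *Vldlr*, a lipoprotein receptor, fell in sgCebpa/b/d (-1.93 ± 0.23, adjusted p = 7.29e-06) and was at -0.36 ± 0.24 in sgLkb1. Among the MT libraries the log2 fold changes in sgCebpa/b/d were -1.56 for *Acot1*, -1.19 for *Mid1ip1*, -0.93 for *Fitm2*, -1.57 for *Abhd5*, -1.65 for *Vldlr* and 0.93 for *Decr1*, all past the test. *G0s2* did not pass there (-1.56 ± 0.53, adjusted p = 0.0899). In sgLkb1 *Mid1ip1* (-1.26), *Acss3* (-1.60) and *Abhd5* (-1.33) passed among the MT libraries too.

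The transcription factors known to drive these genes moved unequally. *Srebf1*, the gene of SREBP-1, was at -0.18 ± 0.12 in sgCebpa/b/d (adjusted p = 0.392) and at 0.27 ± 0.13 in sgLkb1, and differed between the targeted groups (-0.45, adjusted p = 0.0361). In the MT libraries its -0.46 ± 0.13 in sgCebpa/b/d passed (adjusted p = 0.045). *Srebf2*, the gene of SREBP-2 and better known for cholesterol synthesis, fell in sgCebpa/b/d (-0.92 ± 0.13, adjusted p = 4.19e-05), as did *Insig1*, the sterol-sensing retention protein that is also a SREBP target (-1.33 ± 0.29, adjusted p = 0.00417). *Nr1h3*, the oxysterol receptor LXR alpha, fell at a low level (2.44 and 0.81 TPM, -1.42 ± 0.45, adjusted p = 0.0473), and *Mlxipl*, the gene of the carbohydrate-responsive factor ChREBP, was at -1.90 ± 0.79 with medians of 1.38 and 0.07 TPM and did not pass (adjusted p = 0.14). In sgLkb1 none of *Srebf2*, *Insig1*, *Nr1h3* and *Mlxipl* passed. *Lpcat1*, the acyltransferase that remodels phosphatidylcholine to the saturated form of surfactant, fell in sgCebpa/b/d (-0.55 ± 0.09, adjusted p = 3.51e-04) and in sgLkb1 (-0.56 ± 0.10, adjusted p = 0.00165). In the MT libraries *Srebf2* (-1.06), *Insig1* (-1.70) and *Lpcat1* (-0.47, and -0.53 in sgLkb1) passed, and *Nr1h3* did not (-1.17 ± 0.61, adjusted p = 0.311).

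**Figure D5:**
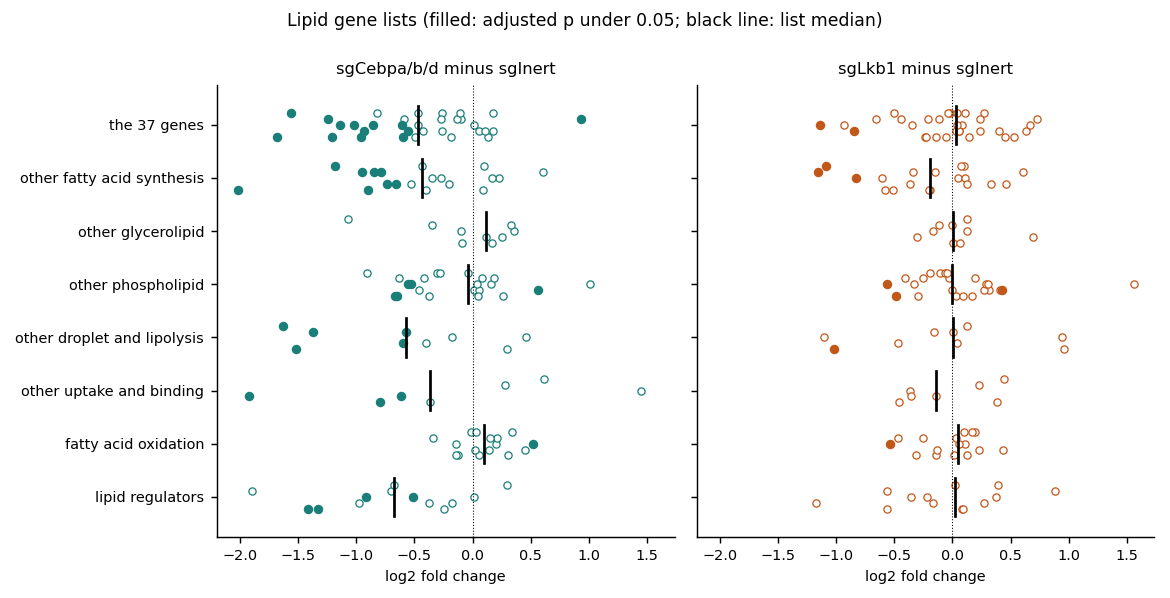
log2 fold change (x axis) of each tested gene in the lists named on the y axis, for sgCebpa/b/d (left) and sgLkb1 (right) minus sgInert, with filled points where the adjusted p was under 0.05 and a black line at the list median. In sgCebpa/b/d the medians of the 37 genes, of the other fatty acid synthesis genes and of the other droplet genes lie at -0.47, -0.43 and -0.57, and that of fatty acid oxidation at 0.10.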

How the data were processed

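Bulk RNA-seq was measured in 19 libraries of FACS-sorted neoplastic cells. The authors aligned reads with STAR 2.6.1d and quantified genes with RSEM 1.2.30 on mm10 (versions per the submitters' processing notes), and deposited RSEM expected counts and TPM for each library. Tables of DESeq2 fold changes, p-values and normalized counts were also deposited and were not used. Groups and replicate numbers came from the virus and label fields. A further allele shared by all groups is not reported here.

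Expected counts were rounded, filtered (edgeR filterByExpr, minimum count 10, total 15; 13986 of 53558 genes kept), scaled by TMM and fitted in 1 quasi-likelihood model of all 19 libraries without a covariate (R 4.3.3, edgeR 4.0.16). A gene passed the two-sided test when its p, adjusted after Benjamini-Hochberg, lay under 0.05. CPM values are TMM-scaled, and log2 CPM has a prior count of 2. Depth per library ranged from 2760731 to 9944134 counts. P-values treat libraries as independent although several share an animal, so they measure partly the spread between tumors of 1 animal. No libraries were duplicates: the chi-square per gene between 52 same-group pairs was 6.67 to 73.7. In simulated counts for sgCebpa/b/d against sgInert (13204 genes), 56.5% of 92 genes changed by 1 on the log2 scale and 86.6% of 97 changed by 2 were recovered, with 10 of 13015 unchanged genes called. The simulated libraries were drawn independently from the sgInert means, without shared animals or the marker differences of the unnumbered libraries. These rates therefore do not give the error rate in the real libraries.

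The 37 genes and all lists were chosen with earlier results of these data known. Genes past the test in any comparison were named, those with the 14 smallest p against sgInert with values by library or range. Other lipid genes were named when past the test and a log2 fold change of 1 against sgInert, or as *Srebf1*, *Srebf2*, *Mlxipl*, *Nr1h3*, *Insig1* and *Lpcat1*. Alternatives were RLE scaling, DESeq2 1.42.0, no filter, gene-length offsets, limma 3.58.1 on log2(TPM + 1) and log2(TPM + 0.1), sex or title series as covariates, the MT libraries alone, counts summed per animal, only the groups compared, a replicate block, each library left out, a log2 fold change past 1 and, added after seeing the data, removal of the 5 libraries lacking an animal number. Gene positions are from GENCODE M21 and upstream windows from RefSeq on GRCm38.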

Additional observations from a re-analysis of the deposited data

Results flagged for a closer look

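Of 96 groups of libraries examined for the 32 tested genes, 6 held a single library far from the others, and chance alone flags about 1 group in 20. In sgCebpa/b/d replicate 7, *Acaca* was at 6.85 log2 CPM, under the 7.06 to 7.17 of the other libraries, and *Fads2* was at 0.87 log2 CPM, under 1.82 to 2.20. *Acsl1* in sgInert replicate 6 was at 1.83 log2 CPM, with the others at 3.02 to 3.82. *Acsl3* in sgCebpa/b/d replicate 2 was at 7.25 log2 CPM, above 6.32 to 6.72. Among the sgLkb1 libraries, *Chkb* in replicate 5 was at 3.45 log2 CPM (others 4.05 to 4.21) and *Chpt1* in replicate 4 at 7.47 log2 CPM (others 7.81 to 7.94).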

How the results depend on the processing

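Over the 23 calls of single genes, 247 of 307 values under an alternative and 400 of 437 values with a library left out were still past the test, and 0 changed direction. *Acaca*, *Fasn*, *Scd1*, *Fads1* and *Acsl5* kept their call in sgCebpa/b/d against sgInert under all 13 alternatives and all 19 fits without a library.

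In sgCebpa/b/d against sgInert, the 12 lower genes were 6 with a log2 fold change past 1, 7 by limma on log2(TPM + 0.1), 7 without the libraries lacking an animal number and 9 to 12 with a library left out. The 1 higher gene became 0 with a log2 fold change past 1, gene-length offsets, limma on TPM with either pseudocount, title series as a covariate, the MT libraries alone, counts summed per animal and without the libraries lacking a number, and 0 to 1 with a library left out (0 without sgCebpa/b/d replicate 5 or 7). The median of -0.47 was -0.30 and -0.35 by limma on log2(TPM + 1) and log2(TPM + 0.1), -0.32 with title series, -0.33 in the MT libraries and -0.31 without the libraries lacking a number.

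In sgLkb1 against sgInert, the 2 lower genes were 1 with a log2 fold change past 1, gene-length offsets, title series, counts summed per animal or without the libraries lacking a number, 0 by limma on either TPM scale, 4 with sex as a covariate and 4 in the MT libraries, and 1 to 3 with a library left out. The 0 higher genes were 1 by DESeq2, 2 by limma on either TPM scale, 1 with title series, 2 in the MT libraries and 0 to 2 with a library left out. The median of 0.03 was 0.21 and 0.22 by limma on TPM, where the median of all genes was also 0.18 and 0.21.

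In sgCebpa/b/d against sgLkb1, the 8 lower genes were 4 with a log2 fold change past 1, 4 without the libraries lacking a number and 7 to 9 with a library left out. The 0 higher genes were 1 in the MT libraries and 1 without the libraries lacking a number. The median of -0.36 was -0.50 and -0.53 by limma on TPM, with all genes at -0.15 and -0.19. The causes of these moves were not tested.

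With the replicate number as a block, 8 genes were lower and 1 higher in sgCebpa/b/d against sgInert (median -0.48), 2 lower and 0 higher in sgLkb1 against sgInert, and 6 lower and 0 higher in sgCebpa/b/d against sgLkb1. The deviations of same-numbered libraries from their group means had correlations of -0.39 to 0.42 over 17 pairs (median 0.07), with 7 pairs over 0.1. Differently numbered pairs were not correlated for reference, so whether a shared number marks a shared factor was not tested.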
